A study of Mus musculus with 11 samples.

Results

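Boundary-to-boundary contacts are the contacts between the edges of neighbouring or more distant chromatin domains on mouse chromosome 1, in the region of the gene En1. They were read from capture Hi-C maps, in which crosslinked chromatin is cut (here with DpnII), religated and enriched for 1 genomic region; a sequenced junction then marks a contact of the joined loci. The 11 libraries came from embryos at embryonic day 9.5 and fell into 4 groups: 3 of wild-type forelimb, 2 of forelimb from mutants carrying an inserted stop cassette, 3 of wild-type forebrain and 3 of wild-type midhindbrain boundary. The strain field names a cross of c57bl6.J and 129S6.sv for all groups, while titles given to wild-type forelimb carry the tag CD1, and the labels do not give the position of the cassette. The libraries of a group were deposited as 1 merged map, so there is no replicate error, every interval below covers counting error only, and read pairs may hold duplicates of 1 molecule.

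Each map covered chromosome 1 from 120200001 to 124400000 (build mm9, per the submitters' processing notes) in 420 bins of 10 kb and held between 7662227 and 9523316 contacts. The 7 edges, numbered from the left, lay at 120670001, 120980001, 121360001, 121910001, 122470001, 123080001 and 123470001. They gave 21 pairs, of which 6 joined neighbouring edges (310 to 610 kb apart) and 15 skipped at least 1 edge (690 to 2800 kb apart). For each pair a window of 7 by 7 bins was taken, with bin starts within 30 kb of the edges, so that the 21 windows held 1029 of the 88410 bin pairs of a map. The centre is the 3 by 3 bin pairs on the edges and the surroundings are the other 40. The contact signal of the centre was divided by the mean signal of all bin pairs of a map with the same separation (the distance mean), and separately by that of the surroundings, each relative to its own distance means. Signal means the deposited Knight-Ruiz (KR) balanced value, which evens out coverage between bins.

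In mammalian chromosomes, cohesin is held to extrude chromatin loops until it meets CTCF bound at domain boundaries. A domain with such boundaries often shows a focus of contact where its edges meet, called a corner or loop dot, and contacts that pass over a boundary are reduced. En1 encodes a homeobox transcription factor that patterns the ventral limb and the midhindbrain boundary, and Gli2 encodes a transcription factor of hedgehog signalling. By the gene order of the RefSeq table (assembly GRCm38, used for order alone), Gli2 and Inhbb lie on the left of the region, then Ralb to Marco, then En1, with Insig2 and Ddx18 to its right. As background and not as a result, En1 is known to lie just right of edge 5, and Gli2 between edges 1 and 2; no gene was placed on the maps here.

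The edges were chosen by measured values, the minima of an insulation score of the wild-type forelimb map, which averages KR signal over 200 kb squares placed across each position. The same recipe gave these 7 edges again, with depths from 0.20 (log2) at edge 4 to 1.26 at edge 5. The threshold was 0.2, and the deepest minimum left outside it was that at 122050001, with 0.16. The windows on edges 1 and 2 (49 of 49 bin pairs), 2 and 3 (34 of 49) and 6 and 7 (28 of 49) were short enough to enter insulation squares, so their values in wild-type forelimb are part of what chose the edges. None of the other 18 windows held a bin pair of any square. All levels of the windows are therefore given as descriptions, beside the share of all windows of the region that pass the same mark.

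**Figure D1:**
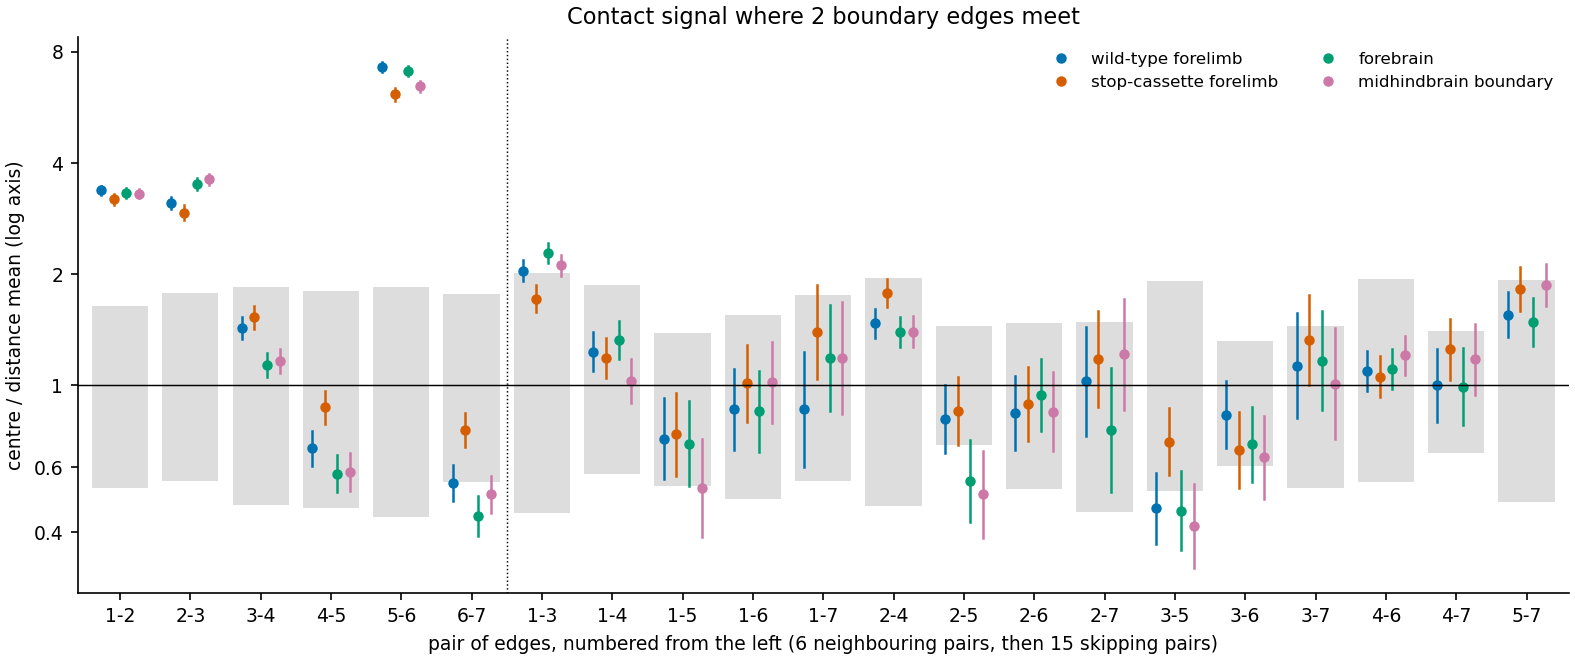
Centre signal over the distance mean (log axis) for the 21 pairs of edges in the 4 maps; points are values, vertical lines 95% counting intervals, and grey bars the 5th to 95th percentile of all windows of the same separation in wild-type forelimb. Edges 5 and 6 lie highest, between 6.14 and 7.27, and 4-5 and 6-7 lie below 1 in all 4 maps.

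Strong contacts where neighbouring edges meet were found at 3 of the 6 neighbouring pairs, those joining edges 5 and 6, 1 and 2, and 2 and 3. A 4th pair, 3-4, lay modestly above the distance mean, and the remaining pairs, 4-5 and 6-7, lay below it in all 4 maps. At least 1.2 times the distance mean was reached by 4 of 6 neighbouring pairs in wild-type forelimb (27.1% of all 11408 windows 310 to 610 kb apart), 4 of 6 in the stop-cassette map (24.7% of windows), 3 of 6 in forebrain (26.8%) and 3 of 6 at the midhindbrain boundary (27.0%). At most 1/1.2 of it was found at 2, 1, 2 and 2 pairs in the same order, where 47.8%, 44.1%, 48.1% and 46.1% of all windows were that low. The median over the 6 pairs was 2.28 in wild-type forelimb, 2.23 in the stop-cassette map, 2.23 in forebrain and 2.23 at the midhindbrain boundary, against medians between 0.853 and 0.893 over all windows. That median stands between the groups of high and low pairs and describes neither: without the pairs of edge 2 the mean of the 4 maps' medians dropped from 2.24 to 0.996.

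The domain between edges 5 and 6, 610 kb long, had the most enriched centre of all 21 pairs. Its centre held 4265 contacts in wild-type forelimb, 2688 in the stop-cassette map, 4301 in forebrain and 3755 at the midhindbrain boundary. Its KR signal per bin pair was 476 in wild-type forelimb against a distance mean of 65.5. Relative to the distance mean the centre stood at 7.27 in wild-type forelimb (95% counting interval 7.05 to 7.51), 7.10 in forebrain (6.88 to 7.32), 6.46 at the midhindbrain boundary (6.24 to 6.68) and 6.14 in the stop-cassette map (5.90 to 6.39). Wild-type forelimb and forebrain overlapped in these intervals, and the stop-cassette map was the lowest of the 4, with an interval that overlapped that of midhindbrain boundary. Among the 353 windows of this separation, which overlap each other, it ranked 1st in wild-type forelimb and forebrain, 2nd in the stop-cassette map and 3rd at the midhindbrain boundary.

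The focus itself did not lie on the edges but inside the domain. In all 4 maps the highest bin pair of the window joined 122490001-122500000 with 123070001-123080000, which starts 20 kb right of edge 5 and 10 kb left of edge 6 and so falls in the surroundings, not in the centre. It held 2292 contacts in forebrain (exact Poisson 95% interval 2199 to 2388), 1523 in wild-type forelimb (1448 to 1602), 1570 at the midhindbrain boundary (1493 to 1650) and 961 in the stop-cassette map (901 to 1024). That was 21.2 times the distance mean in forebrain, 16.6 at the midhindbrain boundary, 15.02 in wild-type forelimb and 12.9 in the stop-cassette map. It ranked 1st of the 362 bin pairs of its separation in every map. The 3 by 3 bin pairs around it stood at 11.5 in forebrain (95% counting interval 11.2 to 11.7), 9.49 at the midhindbrain boundary (9.29 to 9.71), 9.18 in wild-type forelimb (8.98 to 9.39) and 8.28 in the stop-cassette map (8.06 to 8.501). Here forebrain was above and stop-cassette forelimb below the others, while wild-type forelimb and midhindbrain boundary overlapped. This bin pair was picked for its height, so the order of the maps at it is a description without a test.

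**Figure D2:**
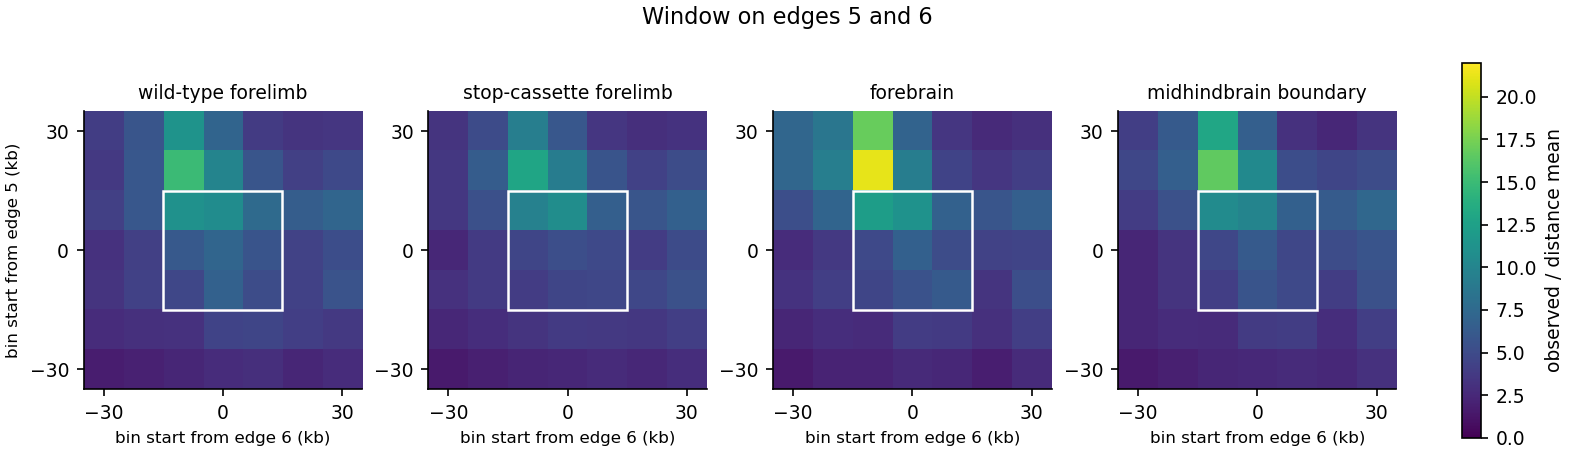
KR signal over the distance mean of the 49 bin pairs in the window on edges 5 and 6, 1 panel per map; axes give the start of each bin from edge 6 (horizontal) and edge 5 (vertical) in kb, and the white square marks the 3 by 3 centre. The highest bin pair starts 20 kb right of edge 5 and 10 kb left of edge 6 in all 4 maps, from 12.9 in the stop-cassette map to 21.2 in forebrain.

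The mean over the 6 neighbouring pairs peaked at the same offsets, although no other neighbouring window had its highest bin pair there. The contact was not limited to bins inside the domain. The window was split into 4 blocks of 3 by 3 bin pairs by the side of the edges. Bins right of an edge started 0 to 20 kb from it, so those at 30 kb were left out. Bins just right of both edges stood at 6.92 times the distance mean in wild-type forelimb, close to the 6.59 of bins between the edges. Bins left of both edges stood at 3.04 and bins outside the domain on both sides at 4.19. The stop-cassette map gave 6.31, 5.79, 2.80 and 3.62 for the same blocks. The block right of both edges also held bin pairs next to the focus, at 10.7 and 9.89 in wild-type forelimb. The omitted bin 30 kb right of edge 5 stood at 11.3 with the bin 10 kb left of edge 6 in wild-type forelimb. With the bin on edge 6 it stood at 7.05. In the stop-cassette map these values were 9.38 and 6.00. Which of the blocks between the edges and right of both is higher therefore depends on the bins they hold. In forebrain the block between the edges was the highest, at 8.23, with 6.41 right of both edges. The chromatin just right of edge 5 thus kept a high signal with bins on either side of edge 6, whereas bins left of edge 5 had less.

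The windows on the left of the region gave the next highest values. At edges 1 and 2, 310 kb apart, the centre held 4752 contacts in wild-type forelimb, 3134 in the stop-cassette map, 4648 in forebrain and 4433 at the midhindbrain boundary. It stood at 3.38 times the distance mean in wild-type forelimb (95% counting interval 3.28 to 3.48), 3.19 in the stop-cassette map (3.08 to 3.30), 3.32 in forebrain (3.22 to 3.41) and 3.30 at the midhindbrain boundary (3.21 to 3.40). The intervals of the 4 maps overlapped, and the stop-cassette value was the lowest. The highest bin pair joined 120660001-120670000 with 120980001-120990000 in the 3 wild-type maps, at 6.05 times the distance mean in wild-type forelimb, 5.56 in forebrain and 5.87 at the midhindbrain boundary, and ranked 1st of 388 bin pairs of its separation in each. All 4 blocks of this window were high, between 1.86 and 2.81 over the maps, on either side of both edges.

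At edges 2 and 3, 380 kb apart, the brain maps were above the forelimb maps. The centre stood at 3.61 times the distance mean at the midhindbrain boundary (3224 contacts, 95% counting interval 3.49 to 3.74), 3.51 in forebrain (3221 contacts, 3.39 to 3.64), 3.13 in wild-type forelimb (2925 contacts, 3.01 to 3.25) and 2.93 in the stop-cassette map (1937 contacts, 2.80 to 3.07). Neither forelimb interval reached those of the brain maps. At the brain maps' own edge 3, 121380001, the forebrain centre stood at 3.13 (3.02 to 3.24). The midhindbrain boundary centre there stood at 3.15 (3.04 to 3.26). Both intervals overlapped that of wild-type forelimb. At its own edge 3, 121350001, the stop-cassette map stood at 2.58 (2.46 to 2.71). The signal of this window followed edge 2: bins right of edge 2 stood at 2.90 with bins left of edge 3 and at 3.21 with bins right of it in wild-type forelimb, while bins left of edge 2 stood at 1.44 and 1.66. The other 3 maps showed the same order of these 4 blocks, with 2.59 or more on the right of edge 2 and at most 2.06 on its left.

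At edges 3 and 4, 550 kb apart, the forelimb maps were above the brain maps. The centre stood at 1.53 in the stop-cassette map (784 contacts, 95% counting interval 1.42 to 1.64), 1.43 in wild-type forelimb (919 contacts, 1.34 to 1.53), 1.16 at the midhindbrain boundary (736 contacts, 1.08 to 1.25) and 1.13 in forebrain (752 contacts, 1.05 to 1.22). The forelimb intervals did not overlap those of the brain maps. Edge 4 is the weakest of the 7, and the boundary that the same recipe called in the brain maps lay 140 kb further right, at 122050001. Both brain maps also had a minimum at edge 4, but below the threshold of 0.2. Its depth was 0.18 in forebrain and 0.12 at the midhindbrain boundary. Wild-type forelimb likewise had a shallow minimum at 122050001, with 0.16. At the brain maps' own edges, 121380001 and 122050001, the centre stood at 0.779 in forebrain and 0.679 at the midhindbrain boundary, so moving to them did not raise the brain values.

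Edges 4 and 5 and edges 6 and 7 had less signal than the distance mean. At 4-5, 560 kb apart, the centre stood at 0.676 in wild-type forelimb (369 contacts), 0.577 in forebrain (329), 0.584 at the midhindbrain boundary (310) and 0.872 in the stop-cassette map (393, 95% counting interval 0.785 to 0.968). The median window of this separation stood at 0.806 to 0.839 over the maps, so the stop-cassette value was above it and the others below, at ranks 236 to 275 of 358. This window straddled the contrast at edge 5: bins between the edges stood at 1.26 in wild-type forelimb and bins right of both edges at 0.611. At 6-7, 390 kb apart, the centre stood at 0.544 in wild-type forelimb (332 contacts), 0.443 in forebrain (291), 0.507 at the midhindbrain boundary (322) and 0.758 in the stop-cassette map (378, 0.682 to 0.842). All 4 blocks of the 6-7 window were low, between 0.340 and 0.806 over the maps, on either side of both edges. In both windows the stop-cassette interval lay above those of the 3 wild-type maps. With each map's own edges the 4-5 centre stood at 1.27 in forebrain and 1.19 at the midhindbrain boundary, where edge 4 is placed at 122050001, only 420 kb from edge 5.

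**Figure D3:**
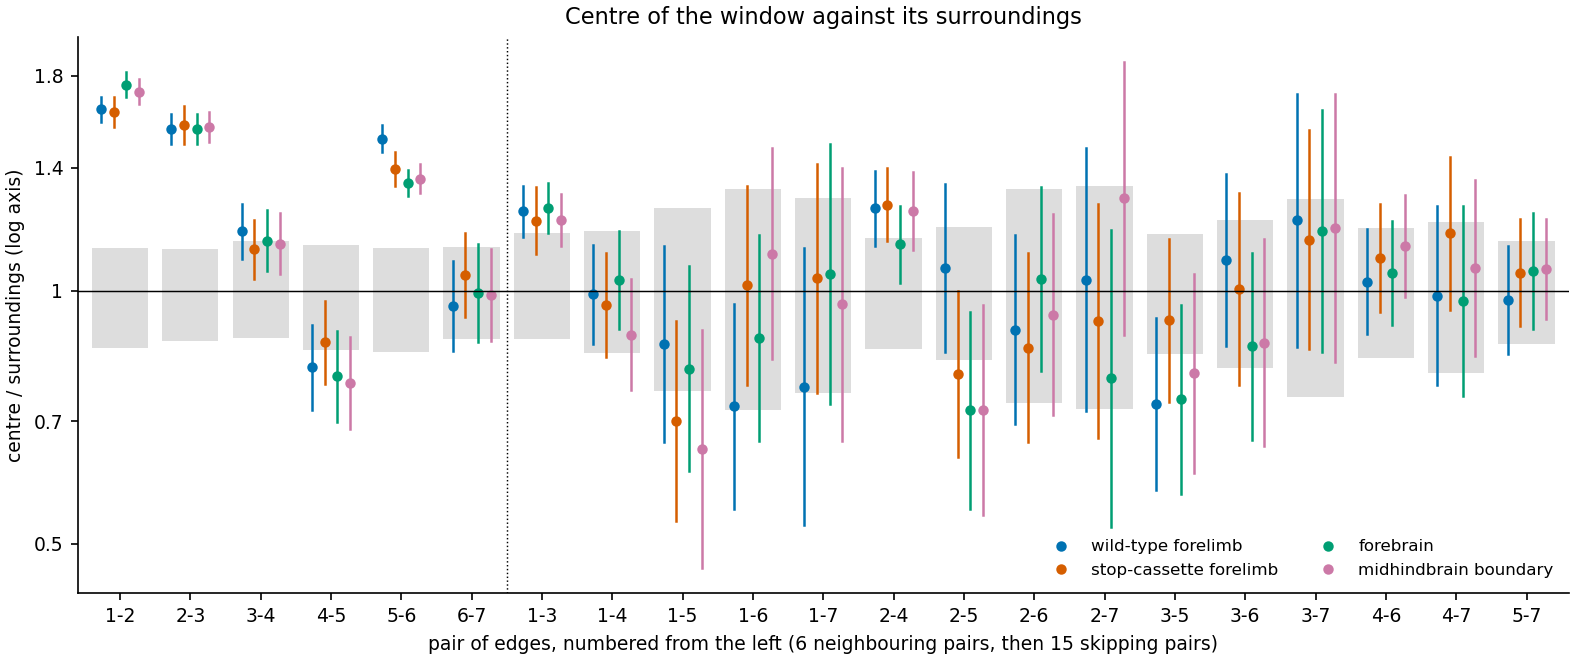
Centre over surroundings (log axis) for the 21 pairs of edges in the 4 maps; points are values, vertical lines 95% counting intervals, and grey bars the 5th to 95th percentile of all windows of the same separation in wild-type forelimb. Pairs 1-2, 2-3 and 5-6 lie at 1.34 or more in all 4 maps, above their grey bars.

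Whether the signal peaked on the edges was read from the centre over its surroundings. At least 1.2 was reached by the same 3 neighbouring pairs, 1-2, 2-3 and 5-6, in each of the 4 maps, a mark that 1.71% of all windows 310 to 610 kb apart reached in wild-type forelimb, 2.35% in the stop-cassette map, 2.39% in forebrain and 2.22% at the midhindbrain boundary. At 1-2 the ratio was 1.64 in wild-type forelimb (95% counting interval 1.59 to 1.699), 1.63 in the stop-cassette map (1.56 to 1.698), 1.76 in forebrain (1.698 to 1.82) and 1.72 at the midhindbrain boundary (1.67 to 1.79). At 2-3 it was the same in the 4 maps within counting error, from 1.556 in wild-type forelimb to 1.575 in the stop-cassette map. So the higher level of the brain maps at 2-3, with the edges of wild-type forelimb, was shared by the centre and its surroundings. At 5-6 it was 1.52 in wild-type forelimb (1.46 to 1.57), 1.39 in the stop-cassette map (1.33 to 1.46), 1.36 at the midhindbrain boundary and 1.34 in forebrain. There the surroundings, not the centre, held the highest bin pair of the window. The mark at 5-6 depends on the setting: at forebrain's own edge 6, 123090001, the ratio was 1.15, and with raw counts the mean of the 4 maps went from 1.404 to 1.19.

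The other neighbouring pairs did not reach 1.2. At 3-4 the ratio lay between 1.12 in the stop-cassette map and 1.18 in wild-type forelimb, with every interval above 1. It ranked 10th to 33rd of the 359 windows of this separation. The same bin pair, in the centre, was the highest of the 3-4 window in all 4 maps. At own edges the 3-4 ratio was 1.06 in the stop-cassette map, 0.896 in forebrain and 0.953 at the midhindbrain boundary. At 6-7 the ratio lay between 0.958 and 1.04, and at 4-5 between 0.777 and 0.868. At 4-5 each of the 4 intervals lay below 1. The signal within 100 kb of 3-4 was highest 70 to 80 kb right of edge 3 and 100 kb left of edge 4, at 1.62 to 2.05 times the distance mean over the maps, well inside the interval and at the limit of the search.

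**Figure D4:**
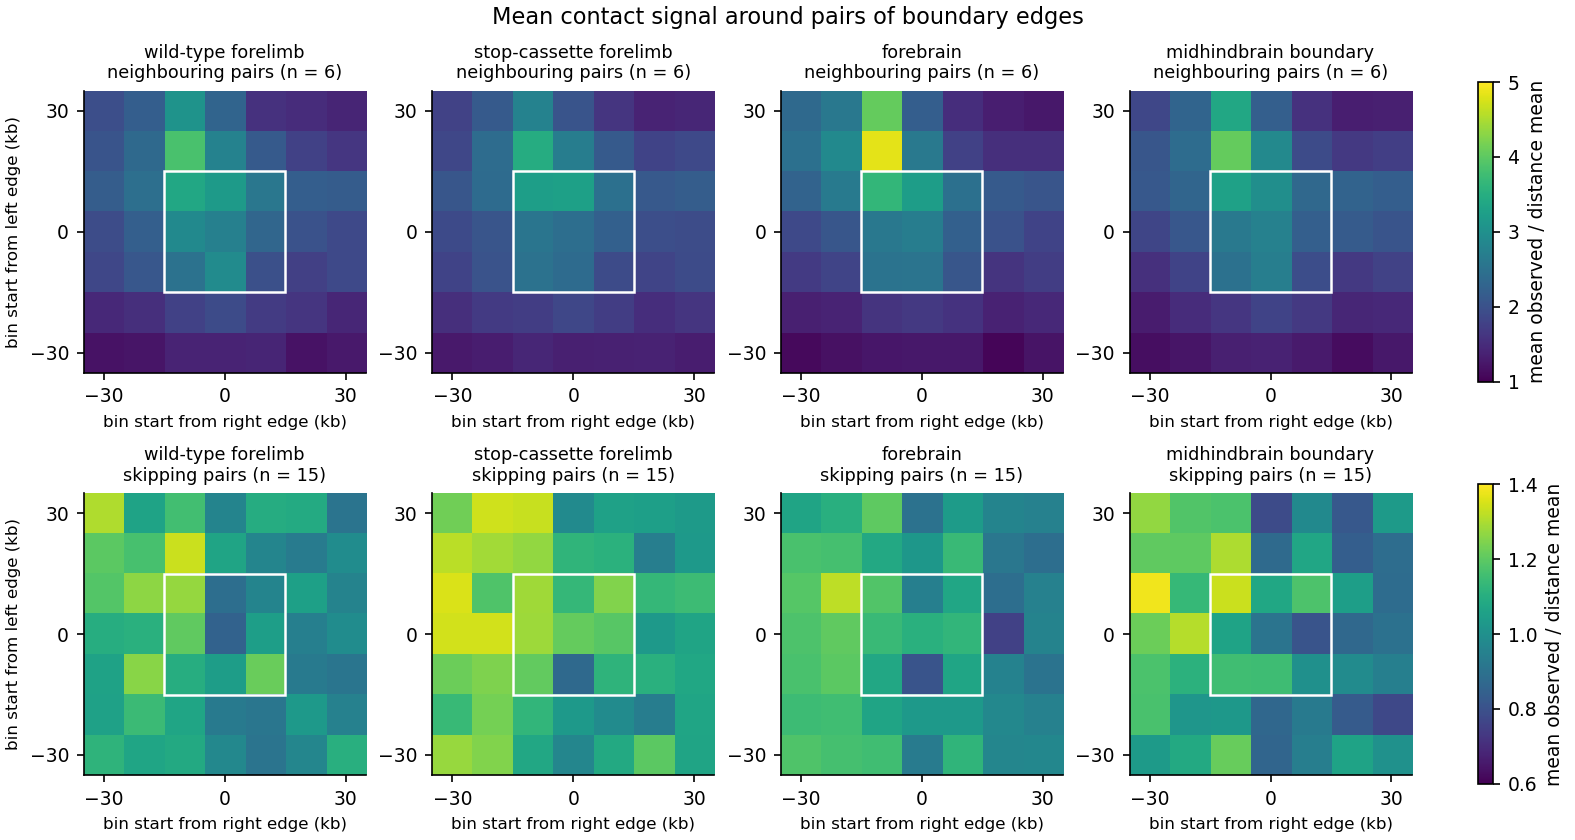
Mean of observed signal over the distance mean in the 7 by 7 window, averaged over the 6 neighbouring pairs (top) and the 15 skipping pairs (bottom), 1 panel per map; axes give bin starts from the right and left edge in kb, the white square marks the 3 by 3 centre, and the 2 rows have different colour scales. The mean of the neighbouring pairs is highest 20 kb right of the left edge and 10 kb left of the right edge, between 3.47 and 4.83. Only pair 5-6, at 12.9 to 21.2 over the maps, has its own highest bin pair there, so this peak does not describe the other neighbouring pairs. The highest bin pair of the skipping pairs lies outside the centre in all 4 maps.

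Pairs that skip an edge had a median near the distance mean, with single values from 0.416 (3-5, midhindbrain boundary) to 2.28 (1-3, forebrain). Their median was 1.0002 in wild-type forelimb, 1.18 in the stop-cassette map, 0.992 in forebrain and 1.03 at the midhindbrain boundary, against medians between 0.931 and 0.973 over the 50774 windows 690 to 2800 kb apart. At least 1.2 times the distance mean was reached by 4 of 15 pairs in wild-type forelimb (23.9% of windows), 6 of 15 in the stop-cassette map (27.1%), 4 of 15 in forebrain (25.9%) and 5 of 15 at the midhindbrain boundary (23.3%). At most 1/1.2 of it was found at 3, 3, 5 and 4 pairs, where 37.0%, 35.9%, 38.7% and 38.8% of windows were that low. A centre at least 1.2 times its surroundings was found at 3 of 15 pairs in wild-type forelimb (6.67% of windows), 2 in the stop-cassette map (7.68%), 1 in forebrain (7.42%) and 3 at the midhindbrain boundary (7.63%). These shares are close to the background or rest on a few pairs, and so say little about skipping pairs as a class. By the number of edges between them, the median in wild-type forelimb was 1.47 with 1 (5 pairs), 0.917 with 2 (4 pairs), 0.842 with 3 (3 pairs), 0.943 with 4 (2 pairs) and 0.861 with 5 (1 pair). In each map this median was lower with 2 edges between than with 1, and beyond that it had no common order. With 4 edges between it was 1.10 in the stop-cassette map, 0.803 in forebrain and 1.12 at the midhindbrain boundary. The single values overlapped: in wild-type forelimb pairs with 1 edge between ran from 0.464 to 2.05 and those with 2 from 0.811 to 1.23.

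Among skipping pairs the highest in the 3 wild-type maps was 1-3, 690 kb apart, which joins the outer ends of the 2 domains with strong corners on the left. Its centre stood at 2.28 in forebrain (1065 contacts, 95% counting interval 2.14 to 2.42), 2.11 at the midhindbrain boundary (976 contacts, 1.98 to 2.26), 2.05 in wild-type forelimb (1024 contacts, 1.92 to 2.18) and 1.72 in the stop-cassette map (603 contacts, 1.58 to 1.86). The stop-cassette interval lay below those of the 3 wild-type maps, and in that map 5-7 and 2-4 stood higher than 1-3. Its centre was 1.21 to 1.25 times its surroundings, with every interval above 1. With raw counts the mean of the 4 maps went from 1.23 to 1.0063, so the focus at this pair depends on balancing. The highest 3 by 3 block within 100 kb lay within 10 kb of both edges in each map. Relative to the distance mean, the 1-3 centre ranked 12th to 28th of the 345 windows of its separation.

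Edges 5 and 7, 1000 kb apart, also shared contacts above the distance mean but without a focus. The centre stood at 1.87 at the midhindbrain boundary (285 contacts), 1.82 in the stop-cassette map (253 contacts), 1.55 in wild-type forelimb (246) and 1.49 in forebrain (218), and at 0.976 to 1.06 times its surroundings. The highest 3 by 3 block within 100 kb joined edge 5 with bins 90 to 100 kb left of edge 7, at 2.71 to 3.59. Bins at edge 7 were thinly covered: the 3 centre bins there had a mean of 19917 contacts in wild-type forelimb, fewer than all but 44 of the 420 bins. With raw counts the mean of the 4 maps at 5-7 went from 1.68 to 0.968, so the direction at this pair depends on balancing.

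Edges 2 and 4, 930 kb apart, had a centre at 1.78 in the stop-cassette map (519 contacts), 1.47 in wild-type forelimb (495), 1.398 at the midhindbrain boundary (447) and 1.39 in forebrain (458). The stop-cassette interval lay above those of the 3 wild-type maps. Among the 321 windows of this separation the centre ranked 12th in the stop-cassette map and 53rd to 59th in the wild-type maps. The centre was 1.135 to 1.265 times its surroundings, and the same bin pair, 120980001-120990000 with 121900001-121910000, was the highest of the window in all 4 maps. Edges 1 and 4 stood at 1.33 in forebrain, 1.23 in wild-type forelimb, 1.19 in the stop-cassette map and 1.03 at the midhindbrain boundary, with ratios to the surroundings from 0.886 to 1.03.

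The 4 lowest skipping pairs reached over edge 5 or ended on it, as did every skipping pair except 1-3, 1-4 and 2-4. That position therefore does not set these 4 apart, and 5-7, which ends on edge 5, stood above the distance mean. Edges 3 and 5, 1110 kb apart, stood at 0.464 in wild-type forelimb (87 contacts, 95% counting interval 0.371 to 0.581), 0.457 in forebrain (75), 0.416 at the midhindbrain boundary (65) and 0.703 in the stop-cassette map (105, 0.570 to 0.868). In the 3 wild-type maps this was among the 5 lowest of the 303 windows of its separation, and the stop-cassette value was the highest of the 4, its interval overlapping those of wild-type forelimb and forebrain. Edges 2 and 5 stood at 0.811 in wild-type forelimb (93 contacts) and 0.853 in the stop-cassette map (96), against 0.551 in forebrain (66) and 0.508 at the midhindbrain boundary (58). Edges 1 and 5 stood between 0.527 and 0.736, and edges 3 and 6, which have edge 5 between them, between 0.639 and 0.834. Edge 5 had the lowest median over its 6 pairs of any edge in each map, from 0.556 at the midhindbrain boundary to 0.862 in the stop-cassette map, even though the highest pair of the region ends on it. The pairs more than 2 Mb apart rest on 29 to 78 contacts each, and 18 of the 20 intervals of these 5 pairs (1-6, 1-7, 2-6, 2-7 and 3-7) included 1, so no difference from the distance mean was detectable there at this depth. The exceptions were the stop-cassette values at 1-7 (1.396, 1.04 to 1.87) and 3-7 (1.33, 1.004 to 1.76).

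The 21 pairs were then compared between maps with a two-sided exact binomial test on the summed centre contacts, adjusted over all 64614 to 64625 windows of the region, with a call at an adjusted p under 0.05 and a fold of at least 1.2. Such a test sets the reads of 1 merged map against those of another and does not compare conditions. The variance among all windows exceeded counting error by a factor of 3.05 between the forelimb maps and by 2.36 to 3.18 in the other comparisons, real differences included. Since wild-type forelimb values of the windows 1-2, 2-3 and 6-7 entered the choice of edges, those pairs are given without a test wherever that map is compared, which leaves 18 pairs. With the variance inflated by the factor above none of the 21 pairs was called in any comparison.

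**Figure D5:**
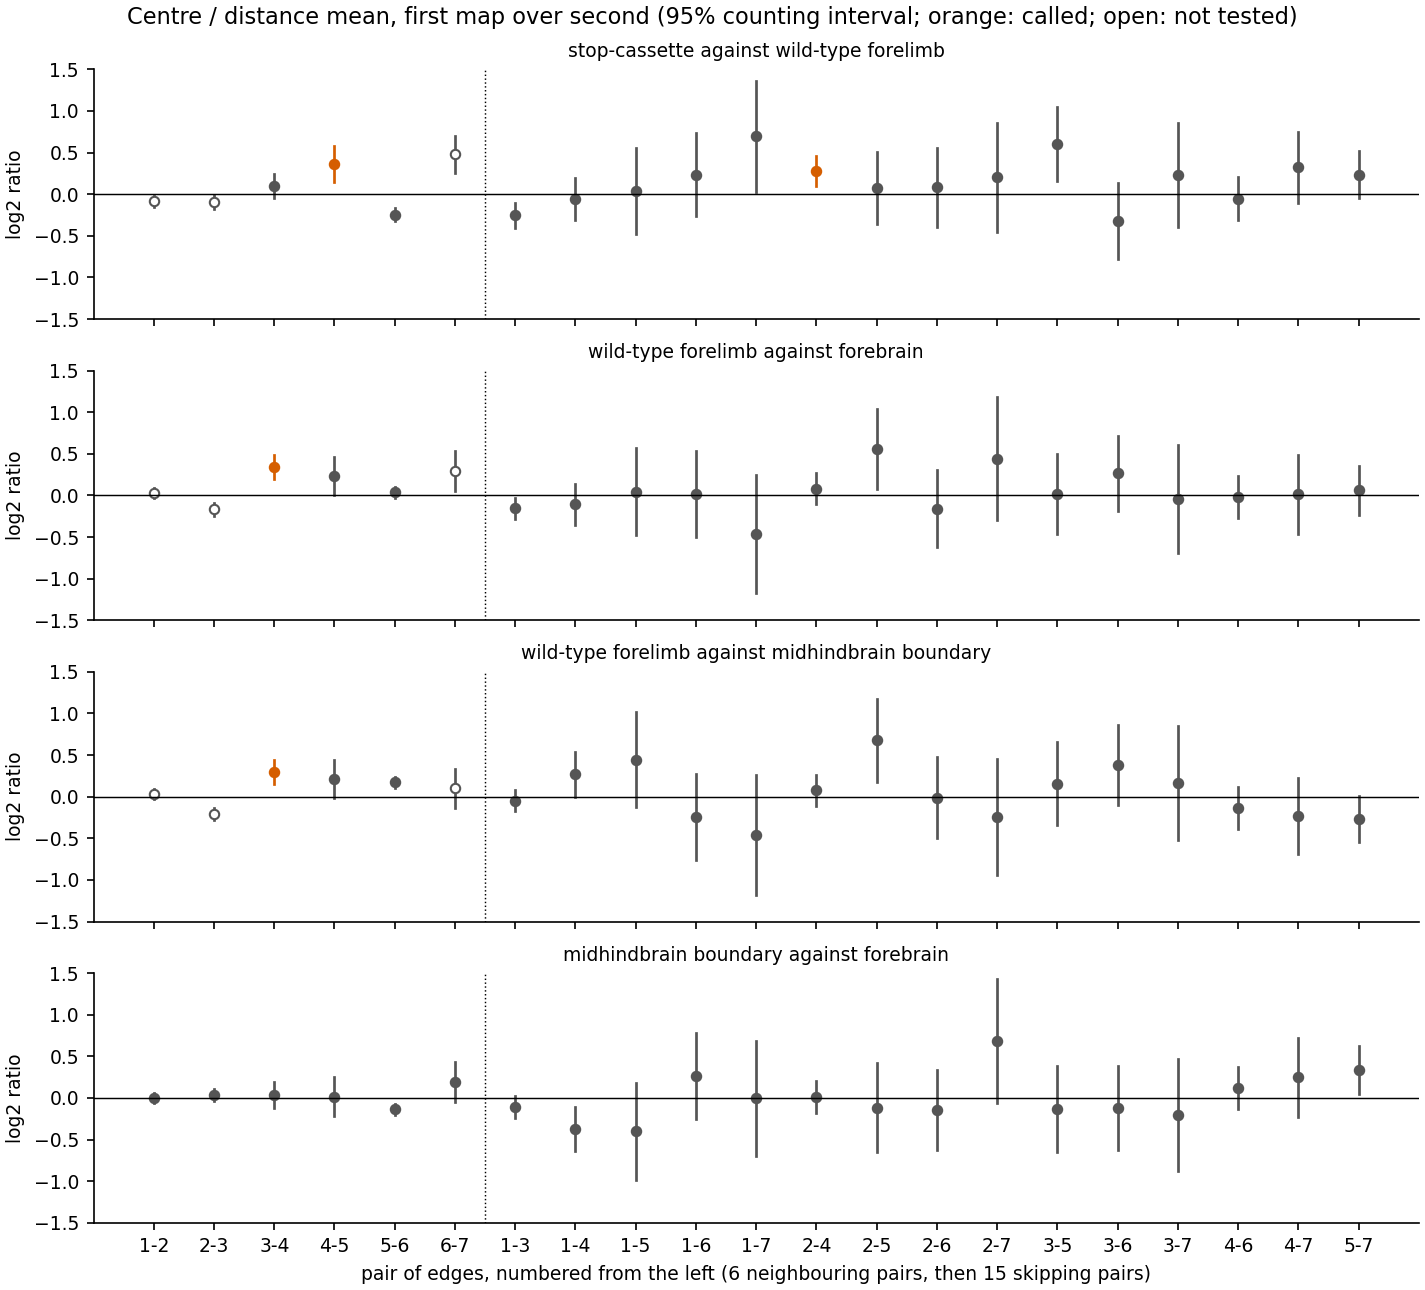
Log2 ratio of centre over distance mean, first map over second, for the 21 pairs of edges in the 4 comparisons; points are values, vertical lines 95% counting intervals, orange marks pairs called by the exact binomial test, and open points pairs given without a test. Called are 2-4 and 4-5 between the forelimb maps, and 3-4 for wild-type forelimb against either brain map.

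Between stop-cassette and wild-type forelimb, 2 of the 18 pairs were called higher in the stop-cassette map (5.47% of all windows) and 0 lower (3.04%). At an unadjusted exact binomial p under 0.05, 3 pairs were higher and 2 lower. The lower ones, 5-6 and 1-3, also passed after adjustment but not the fold. The called pairs were 4-5, 1.29 times higher (393 against 369 contacts, log2 ratio 0.37, counting SE 0.11, exact binomial adjusted p = 0.0058), and 2-4, 1.21 times higher (519 against 495 contacts, log2 ratio 0.28, SE 0.092, exact binomial adjusted p = 0.023). With inflated variance their adjusted p was 0.85 and 0.96. Their log2 ratio of centre over surroundings was only 0.099 at 4-5 and 0.013 at 2-4. Most of both differences was thus shared by the centre and its surroundings. At 5-6, the most enriched pair, the stop-cassette value was 0.844 times that of wild type (log2 ratio -0.25, SE 0.037, exact binomial adjusted p = 1.3e-06, and 0.30 with inflated variance). At 1-3 it was 0.839 times (log2 ratio -0.25, exact binomial adjusted p = 0.0071). Given without a test, the ratio was 0.943 at 1-2 (95% counting interval of the log2 ratio -0.15 to -0.018), 0.938 at 2-3 (-0.18 to -0.0068) and 1.39 at 6-7 (0.26 to 0.701). Over the 21 pairs the median log2 ratio was 0.094, against 0.013 over all windows.

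The stop-cassette map thus stood lower at the strong corners and higher at most pairs with little signal, which the windows of the region did in general. The log2 ratio of centre over surroundings was -0.012 at 1-2, 0.018 at 2-3 and -0.12 at 5-6. At 1-2 and 2-3 the lower level was thus shared by the centre and its surroundings. To sort pairs without either forelimb map, forebrain was used, a choice made after the values were seen. Of the 7 pairs at 1.2 or more in forebrain, the stop-cassette map was above the wild-type one at 2, as were 36.2% of the 16774 windows at that level. Of the 7 pairs at 1/1.2 or less in forebrain, 6 were higher in the stop-cassette map, as were 60.6% of 26195 windows. The stop-cassette value was below all 3 wild-type maps at 5 pairs (1-2, 1-3, 2-3, 4-6 and 5-6), as in 30.8% of all windows, and above all 3 at 10 pairs, as in 34.6%. Strain tag, number of merged libraries and depth also differ between the forelimb maps and cannot be told apart from the genotype.

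Between tissues, wild-type forelimb was called higher than forebrain at 1 of the 18 pairs (1.43% of all windows) and lower at 0 (1.52%). By an unadjusted exact binomial p under 0.05, 2 pairs were higher and 1 lower. Against the midhindbrain boundary wild-type forelimb was called higher at 1 pair (3.32%) and lower at 0 (3.51%). There 5 pairs were higher and 1 lower at an unadjusted p under 0.05 by the same exact test. In both comparisons, which share the forelimb map, the called pair was 3-4. It was 1.26 times higher than in forebrain (919 against 752 contacts, log2 ratio 0.34, counting SE 0.074, exact binomial adjusted p = 0.00049) and 1.23 times higher than at the midhindbrain boundary (919 against 736 contacts, log2 ratio 0.30, SE 0.074, exact binomial adjusted p = 0.0013). With inflated variance the adjusted p was 0.29 and 0.66. The log2 ratio of centre over surroundings at 3-4 was only 0.037 against forebrain and 0.050 against midhindbrain boundary. Most of the difference was thus shared by the centre and its surroundings. At 2-3, given without a test, the forelimb value was 0.890 times that of forebrain (95% counting interval of the log2 ratio -0.24 to -0.094) and 0.865 times that of midhindbrain boundary (-0.28 to -0.13). At 5-6 it was 1.03 times that of forebrain (exact binomial adjusted p = 0.93) and 1.13 times that of midhindbrain boundary (exact binomial adjusted p = 4.9e-05).

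Both forelimb maps were above both brain maps at 7 pairs (1-5, 2-4, 2-5, 3-4, 3-5, 4-5 and 6-7), as in 24.1% of all windows, and below both at 3 pairs (1-3, 2-3 and 4-6), as in 20.3%. Of these 10 pairs, 3-4 and 2-3 were the ones at which neither forelimb counting interval reached a brain interval. With the brain maps' own edges the brain intervals at 2-3 overlapped that of wild-type forelimb.

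Between midhindbrain boundary and forebrain no pair was called in either direction, where 1.93% of all windows were called higher and 1.27% lower; without a minimum fold 1 pair, 5-6, passed the exact binomial test, and 4 pairs had an unadjusted p under 0.05. The highest ratios were at 2-7, where midhindbrain boundary was 1.61 times higher on 36 against 29 contacts (log2 ratio 0.68, 95% counting interval -0.065 to 1.43), and at 5-7, 1.26 times higher (log2 ratio 0.33, 0.045 to 0.62). The lowest ratios were at 1-5, 0.758 times (log2 ratio -0.40, -0.98 to 0.18), and 1-4, 0.772 times (log2 ratio -0.37, -0.64 to -0.11). At 5-6 midhindbrain boundary stood at 0.910 times forebrain (log2 ratio -0.14, -0.20 to -0.069, exact binomial adjusted p = 0.00069). At 1-2 the ratio was 0.997 (95% counting interval of the log2 ratio -0.065 to 0.055), so that a difference between the brain maps of more than about that size was not seen at this corner.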

How the data were processed

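Capture Hi-C maps of 4 groups were used, each merged by the authors from 2 or 3 libraries. Per the labels' map names, reads were processed with HiCUP at a mapping quality of 30 and binned at 10 kb; the submitters' processing notes name Bowtie2 2.3.4.1, Juicer 1.7.6 and build mm9, with no role for each tool. Raw maps, as deposited, give contact counts for each bin pair, and pairs not listed were read as 0. The deposited KR maps hold a balanced signal; it was checked that it equals the count divided by 1 factor per bin. Which program balanced the maps is not given in the sources used here.

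In scipy 1.17.1 and numpy 2.4.6 under Python 3.11.15, summed KR signal of centre and surroundings was divided by summed distance means over all bin pairs of the map, the 21 windows included. Counting errors came from the raw counts, propagated through the KR factors. A window entered the exact binomial test if both maps together gave it at least 20 counts, with the expected share set by KR factors and distance means, and p-values were adjusted by Benjamini-Hochberg. The test was tried on simulated maps with counting error alone, which do not cover the excess variance among windows of the real maps. All 6 neighbouring pairs, the 4 highest and 4 lowest skipping pairs by the mean of the maps, and each called pair are named, or, where none is called, the 2 largest and 2 smallest ratios. The edges, pairs and comparisons were chosen with earlier results of these data known. Alternatives were raw counts, other centres, surroundings and distance means, each map's own boundaries, inflated variance, no minimum fold and leaving out each edge.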

Additional observations from a re-analysis of the deposited data

How the results depend on the processing

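The neighbouring pairs' centre over the distance mean, 2.24 as the mean of the maps' medians, was 2.19 with raw counts, 2.02 with a 4 by 4 centre, 2.29 with a distance mean that leaves out the 21 windows, 2.55 with a distance median and 2.17 with each map's own boundaries. Their centre over surroundings, 1.27, was 1.12 with raw counts, 1.23 with a 4 by 4 centre, 1.15 with a single centre bin pair, 1.18 with own boundaries and 1.39 against the outermost frame. The skipping pairs' centre over the distance mean, 1.05, was 0.852 with raw counts, and their centre over surroundings, 1.02, was 0.742 with raw counts and 0.902 with a single centre bin pair. Leaving out each edge in turn gave 0.996 to 3.30 and 1.07 to 1.48 for the neighbouring pairs and 0.908 to 1.16 and 0.955 to 1.05 for the skipping pairs; the lowest of the first range, without edge 2, falls on the other side of 1, because both 1-2 and 2-3 are then gone. Pair 4-5 turned from a mean of 0.677 to 1.0019 with own boundaries, where edge 4 moved to 122050001 in the brain maps alone. Pair 5-7 went from 1.68 to 0.968 with raw counts, and the cause was not tested.

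Calls depended on the error model and the size of the centre. The counts here are over all 21 pairs and include 6-7 and 2-3, whose wild-type forelimb values helped choose the edges; with the reported settings they are 3 between the forelimb maps, 1, 1 and 0. With a single centre bin pair, which leaves fewer contacts per test, and with inflated variance, 0 pairs were called in each comparison. With a 4 by 4 centre 2 pairs were called for wild-type forelimb against forebrain, 2 against midhindbrain boundary, 2 between the brain maps and 4 between the forelimb maps. Without a minimum fold the counts were 5 between the forelimb maps, 2 and 3 for wild-type forelimb against forebrain and midhindbrain boundary, and 1 between the brain maps, where raw counts also gave 1. The median log2 ratio moved beyond its counting error with a single centre bin pair, to -0.21 for wild-type forelimb against forebrain and -0.080 for midhindbrain boundary against forebrain. Leaving out each edge gave 0.037 to 0.23 for the forelimb maps, 0.012 to 0.063 and -0.011 to 0.16 for wild-type forelimb against forebrain and midhindbrain boundary, and -0.11 to 0.017 between the brain maps. No paired analysis was possible because the replicates of each group were merged in the deposited maps; no library could be left out for the same reason.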
